A study of Arabidopsis thaliana with 14 samples.

Results

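The transcript changes that accompany loss of the borate exporter BOR1 were followed in Arabidopsis thaliana roots by setting each array of a bor1 carrier against the array of its matched background. Of the 14 arrays of the study, 8 form the 4 pairs used here. The carriers were the bor1 single mutant and the nip5;1 bor1 double mutant (called the double mutant where no other is meant), each at 0.3 and at 100 µM boron. Their backgrounds were wild type for bor1 and the nip5;1 single mutant for nip5;1 bor1, at the same boron level. All plants were of the Col-0 ecotype and were 12 days old. They had grown for 10 days on solid medium with 100 µM boron and then spent 2 days at 0.3 µM (low) or 100 µM (sufficient) boric acid before whole roots were collected. The labels mention bor1-1 and nip5;1-1 in their phenotype text, describe impaired leaf expansion of bor1 plants on boron-poor medium, and liken the growth of the double mutant at low boron to that of nip5;1. The remaining 6 arrays (bor2, nip5;1 bor2 and nip5;1 nip6;1) entered the fits, where they bear on the spread and, with interaction terms, also on the estimates, and serve as a comparison where stated. Each genotype and boron level has 1 array, and the 4 pairs come from 2 carrier lines, so p-values measure the spread between backgrounds, boron levels and second mutations, not between replicate cultures.

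Boron enters roots as boric acid, in part through the plasma membrane channel NIP5;1, and is needed to cross-link the pectin rhamnogalacturonan II in cell walls. BOR1 exports borate from root cells toward the xylem and so supplies the shoot, and the protein is removed from the membrane when boron is ample. BOR2 is its closest relative and NIP6;1 is a related channel that acts mainly in shoots. A plant without BOR1 can therefore take up boric acid yet load less of it into the xylem, and one without NIP5;1 and BOR1 lacks both steps.

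Values are MAS5 signals, linear array intensities that the authors had already scaled, and a difference is the log2 signal of a bor1 carrier minus that of its background. A probe set is the group of short probes that reads one transcript, and 13647 probe sets with the higher mean signals were tested. The root hair expansins EXPA7 and EXPA18 read 862 to 1391 and 923 to 1648 units over the 14 arrays, the only root markers of the list with a named probe set. The shoot genes RCA (rubisco activase) and LHCB4.1 (a light-harvesting protein) read 297 to 1242 and 585 to 1498 units. The bor2 array at 0.3 µM stood apart, with the highest RCA signal and a median rank correlation with the other arrays of 0.975, against 0.981 to 0.986 for the others. It belongs to none of the 4 pairs. The probe set of BOR1 is not named in the annotation used here, so the mutated gene could not be checked by name.

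No difference between bor1 carriers and their backgrounds passed the test over the 4 pairs. No probe set was called higher and none lower for the average bor1 effect (0% of 13647 in either direction, limma, adjusted p threshold 0.05), while 360 probe sets (2.64%) had an unadjusted p under 0.05. The smallest adjusted p was 0.649. The SD of the differences over all tested probe sets was 0.26 for bor1 against wild type at 0.3 µM, 0.27 for the same genotypes at 100 µM, 0.25 for nip5;1 bor1 against nip5;1 at 0.3 µM and 0.25 at 100 µM. The bor2 carriers, set against the same backgrounds, gave 0.46, 0.34, 0.27 and 0.31 in the same order, the first of these from the array that stood apart. A difference of at least 1 log2 unit was found for 12 probe sets higher and 31 lower in bor1 at 0.3 µM, and for 47 higher and 24 lower in bor1 at 100 µM. In nip5;1 bor1 it was 3 higher and 52 lower at 0.3 µM, and 40 higher and 14 lower at 100 µM.

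The largest difference belonged to 263319_at, a probe set that the annotation used here does not name. At 0.3 µM it read 118 units in bor1 and 11.1 in the double mutant, against 708 in wild type and 655 in nip5;1. At 100 µM its signals were 172 in bor1 and 5.70 in the double mutant, against 508 in wild type and 513 in nip5;1. All 4 carriers lay below all 4 backgrounds, and the double mutant lay below the single mutant. The pair differences were -2.59 and -1.56 for bor1 against wild type at 0.3 and 100 µM, and -5.03 and -4.68 for the double mutant pairs. Both arrays of the double mutant were below the floor of 20 units, so 263319_at was at least 32.8-fold lower there at 0.3 µM and at least 25.6-fold lower at 100 µM. With these arrays set to the floor the mean difference was -3.47 (SE 0.57), and it did not pass the adjusted threshold in the average effect (adjusted p 0.649, limma).

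It did pass where the bor1 effect was allowed to depend on background and boron level. Each background has 1 carrier line, so dependence on background cannot be told apart from a difference between the carrier lines. In nip5;1 the fitted bor1 effect on 263319_at was -5.05 (adjusted p 0.00014, limma), a size that depends on the floor. It was -5.98 with a floor of 10 units and -3.61 with a pseudocount of 50, and passed under both (adjusted p 2.7e-05 and 0.00122). The fitted bor1 effect was -3.65 at 0.3 µM (adjusted p 0.00291) and -3.28 at 100 µM (adjusted p 0.00788). It was the 1 probe set called lower in each of these 3 comparisons (0.00733% of 13647), with 0 called higher. All 3 calls were lost when dim probe sets were also tested, with adjusted p of 0.0503 in nip5;1, 0.147 at 0.3 µM and 0.0846 at 100 µM. In intact NIP5;1 the fitted effect was -1.88 (adjusted p 0.841), and the difference between backgrounds was -3.17 (adjusted p 0.143). With a floor of 10 units that difference was -4.10 and passed (adjusted p 0.0142, limma). In the 8 arrays of the pairs alone, with pair as a block, it was -2.78 and passed too (adjusted p 0.000358, limma). The effect of -2.07 in the intact background passed there as well (adjusted p 9.16e-05, limma). That fit has 1 residual degree of freedom. Without the bor2 array at 0.3 µM, which read 258 units against 531 in bor2 at 100 µM, the effect in intact NIP5;1 was -2.06 (adjusted p 0.000421) and the difference between backgrounds was -2.82 (adjusted p 0.000342). Without the double mutant pair at 0.3 µM the effect in nip5;1 had an adjusted p of 0.15, and without that pair at 100 µM it had 0.217. Without the pair of bor1 and wild type at 100 µM, the adjusted p was 0.103 for the effect at 0.3 µM and 1.0 for that at 100 µM. Those 2 effects had 1.0 and 0.0875 without the double mutant pair at 0.3 µM, and 0.08 and 1.0 without the one at 100 µM.

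A dim transcript outside the tested set differed by a similar amount in all 4 pairs. AT5G08250 encodes a cytochrome P450 of the CYP86B group, relatives of fatty acid hydroxylases that make suberin monomers. It read 36.1 units in bor1 and 47.8 in the double mutant at 0.3 µM, against 110.0 in wild type and 120.2 in nip5;1. The 100 µM arrays gave it 46.9 in bor1 and 38.1 in the double mutant, against 115 in wild type and 126 in nip5;1. The carriers did not overlap their backgrounds, and the other 6 arrays read 91.2 to 144 units. Its differences were -1.61 and -1.29 in the bor1 pairs and -1.33 and -1.72 in the double mutant pairs, a mean of -1.49 ± 0.21 (SD, n = 4 pairs), or 2.80-fold lower. Its mean signal of 98.2 units lay below the filter at 113 units, so it was not among the tested probe sets. When all 22746 probe sets were tested it was the 1 gene called for the average bor1 effect (adjusted p 0.00844, limma). It was singled out after its values were seen.

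**Figure D1:**
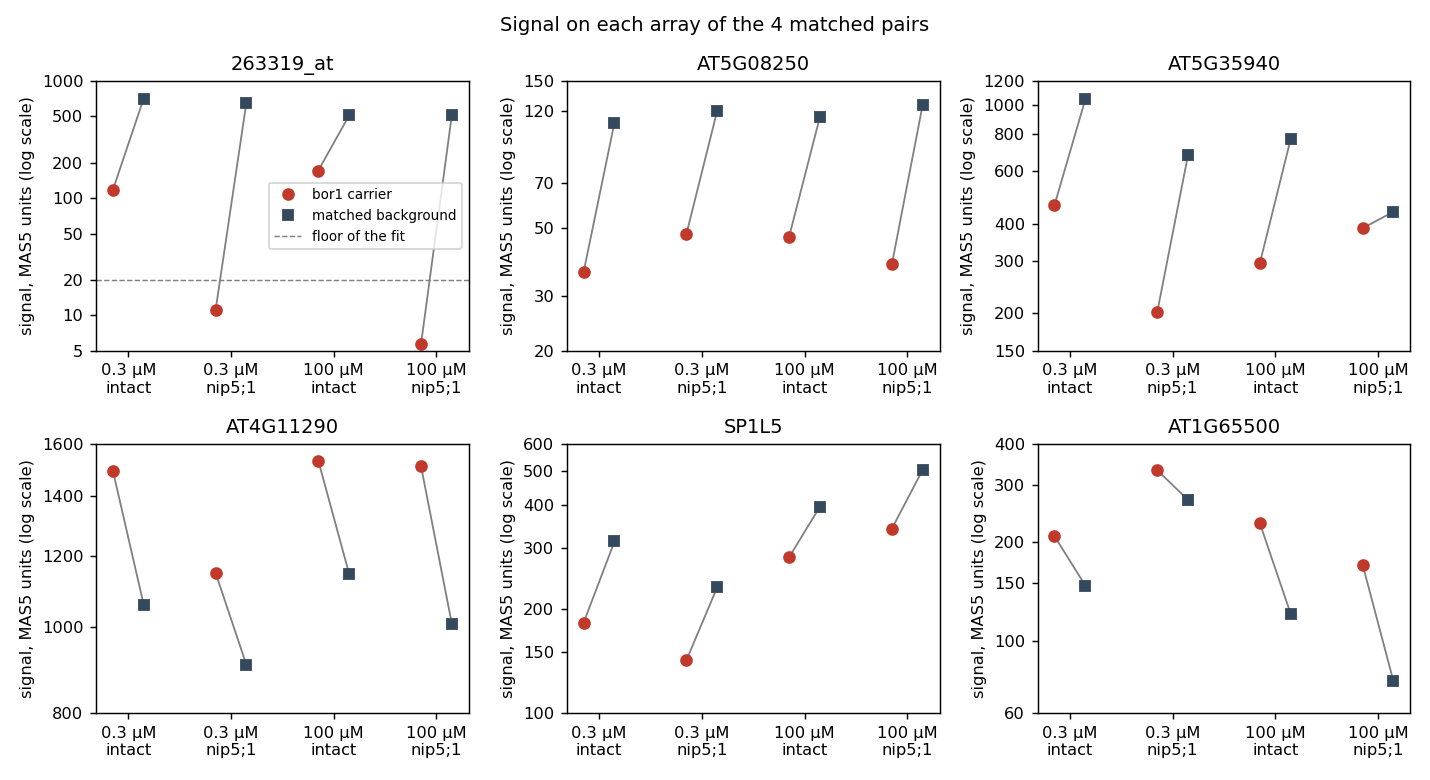
MAS5 signal (log axis) of 6 probe sets on each of the 8 arrays, as 4 pairs by boron level and NIP5;1 background, with bor1 carriers as circles, their backgrounds as squares, and a line joining each pair. Carriers lay below their background in every pair for 263319_at, AT5G08250, AT5G35940 and SP1L5 and above it for AT4G11290 and AT1G65500.

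Direction was shared by all 4 pairs in 927 probe sets that were higher in the carriers (6.79% of those tested) and 877 that were lower (6.43%). Requiring at least 0.3 log2 units in every pair left 11 higher (0.0806%) and 15 lower (0.11%). Of these 26 probe sets, 7 higher and 4 lower ones name 1 gene, 4 higher and 9 lower ones are not listed in the annotation used, and 2 lower ones name several genes. None of the 11 named genes passed the adjusted threshold, so they are given as values. At the edge of this rule, the smallest pair difference was 0.302 in size for AT1G65500 and 0.303 for AT4G10550 inside it, and 0.293 for AT5G14650 and 0.291 for rbcL outside it.

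Among secreted and cell wall proteins, AT4G11290, a class III peroxidase (an apoplastic enzyme family that cross-links or loosens wall polymers), had the smallest p of any named gene. It read 1493 units in bor1 and 1148 in the double mutant at 0.3 µM, against 1058 in wild type and 906 in nip5;1. At sufficient boron it had 1532 in bor1 and 1510.3 in the double mutant, against 1145 in wild type and 1007 in nip5;1. The lowest carrier and the highest background were nearly level at 1148 and 1145 units, and each carrier was above its own background by 0.34 to 0.58. The mean difference was 0.46 (SE 0.08, adjusted p 0.76, limma). The bor2 carriers were also higher, by 0.42 on average, and the bor1 minus bor2 difference was 0.04 (95% interval -0.13 to 0.22).

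Of the 40 class III peroxidases tested, 0 passed, 4 were higher in all 4 pairs (6.79% of all tested probe sets were) and 0 were lower in all 4 (6.43% of all). Their median difference was 0.03, against -0.0017 over all tested probe sets. Besides AT4G11290 these were Prx37, AT5G24070 and AT1G49570, with mean differences of 0.31, 0.30 and 0.25. Prx37 read 2001 units in bor1 and 3045 in the double mutant at 0.3 µM, against 1553 in wild type and 2792 in nip5;1. With sufficient boron it read 1819 in bor1 and 1704 in the double mutant, against 1485 in wild type and 1237 in nip5;1. The range of its carriers overlapped that of the backgrounds.

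AT4G10550, a subtilase (a serine protease of the apoplast), read 181 units in bor1 and 189 in the double mutant at 0.3 µM, against 147 in wild type and 141 in nip5;1. At 100 µM its signals were 195 in bor1 and 164 in the double mutant, against 154 in wild type and 121 in nip5;1. All 4 carriers were above all 4 backgrounds, by a mean of 0.38 (SE 0.12, adjusted p 0.999, limma). Of 17 subtilases tested, 2 were higher in all pairs (6.79% of all were) and 0 lower (6.43% of all).

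AT5G66815 is CEP5, the gene of a small secreted peptide that acts on root growth. It read 201 units in bor1 and 185 in the double mutant at 0.3 µM, against 148 in wild type and 135 in nip5;1. The 100 µM arrays gave it 144 in bor1 and 188 in the double mutant, against 106 in wild type and 92.6 in nip5;1. The differences were 0.44 to 0.45 in 3 pairs and 1.02 in the double mutant pair at 100 µM, and the ranges overlapped by only the carrier at 144 and the background at 148 units.

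Of the other named genes that were higher by this rule, some have no known function. AT1G65500 read 209 units in bor1 and 332 in the double mutant at 0.3 µM, against 148 in wild type and 269 in nip5;1. At sufficient boron it had 228 in bor1 and 171 in the double mutant, against 121 in wild type and 75.2 in nip5;1. Its pair differences were larger at 100 µM (0.92 and 1.18) than at 0.3 µM (0.50 and 0.30), and the groups overlapped. AT2G27340, a predicted deacetylase of GPI anchor synthesis, had a mean difference of 0.45 (SD 0.12, n = 4 pairs), with carriers at 158 to 194 units and backgrounds at 119.7 to 141 units. These did not overlap, and the average bor2 effect on AT2G27340 was -0.05. AT2G36650 differed by 0.45 on average, and AT1G21830 by 0.66 on one probe set but by 0.08 on its second.

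The 4 named genes that were lower in all pairs were SP1L5, AT1G50510, AT2G40960 and CYP718. SP1L5, of the SPIRAL1 family of microtubule-associated proteins that shape directional cell growth, read 183 units in bor1 and 142 in the double mutant at 0.3 µM, against 313 in wild type and 231 in nip5;1. With sufficient boron it read 282 in bor1 and 341 in the double mutant, against 395 in wild type and 504 in nip5;1. Each carrier was 0.49 to 0.78 lower than its background, with a mean of -0.63 (SE 0.24), and the ranges of the groups overlapped, with lower levels at 0.3 than at 100 µM in both.

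AT1G50510, the enzyme that cleaves pseudouridine monophosphate in peroxisomes, had carriers at 311 to 455 units and backgrounds at 491 to 648 units, with no overlap. Its differences were -0.73 and -1.06 at 0.3 µM but -0.37 and -0.35 at 100 µM. AT2G40960, a protein with an R3H nucleic acid-binding domain, had carriers at 96.3 to 135 units and backgrounds at 155 to 196 units, a mean difference of -0.56 ± 0.10 (SD, n = 4 pairs). The cytochrome P450 gene CYP718 had carriers at 202 to 279.9 units and backgrounds at 324 to 396 units, a mean difference of -0.55. All 3 genes kept their carriers below every background, and the average bor2 effects on them were -0.30, -0.43 and -0.60. The named genes of this rule were chosen for a shared direction in every pair, which favours such separation. Its share over all tested probe sets was not counted.

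AT5G35940, a jacalin-related lectin (a carbohydrate-binding protein), had the largest mean difference among tested named genes with one sign in all 4 pairs. It read 461 units in bor1 and 202 in the double mutant at 0.3 µM, against 1042 in wild type and 678 in nip5;1. At 100 µM its signals were 295 in bor1 and 386 in the double mutant, against 769 in wild type and 438 in nip5;1. The double mutant pair at 100 µM differed by only -0.18, the other 3 by -1.18 to -1.75. The mean of -1.12 (SE 0.23) had an adjusted p of 0.95 in limma, and the average bor2 effect was -1.40. Of 11 jacalin-related lectins tested, 0 passed and 2 were lower in all 4 pairs (6.43% of all were), AT5G35940 and JAL34 (-0.07).

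Other cell wall and metabolic families gave the same count of 0 passing members. Of 13 expansins tested, which loosen walls during growth, 0 were higher and 1, EXPA15, was lower in all 4 pairs (6.79% and 6.43% of all were). EXPA15 read 1217 units in bor1 and 1015 in the double mutant at 0.3 µM, against 1443 in wild type and 1226 in its background. Its carriers read 1317 and 1673 units at 100 µM, against 1760.5 and 2081 in the backgrounds, a mean difference of -0.31 (SE 0.15). Of 9 xyloglucan endotransglucosylases, 1 was higher in all pairs and 0 lower, and of 13 cytochrome P450 probe sets 0 were higher and 2 lower, beside the same shares.

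**Figure D2:**
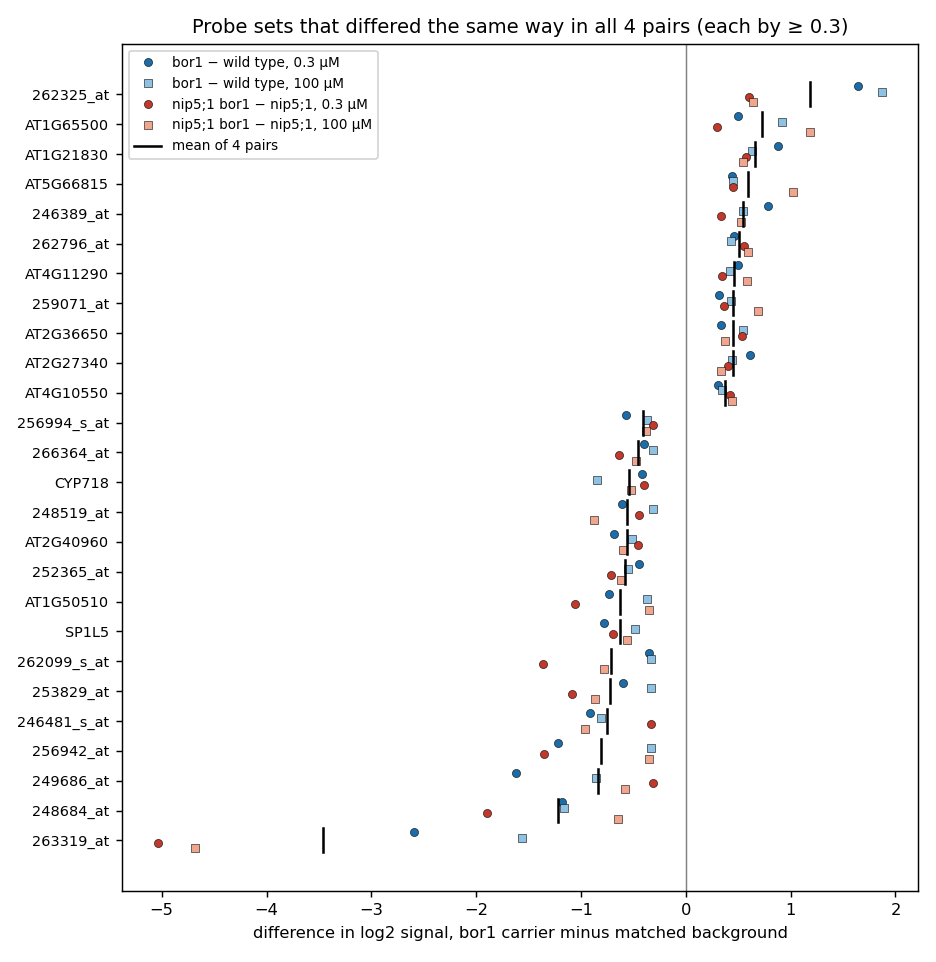
Difference in log2 signal, bor1 carrier minus matched background, for the 26 probe sets that differed by at least 0.3 in one direction in all 4 pairs. Circles are 0.3 µM, squares 100 µM, blue bor1 against wild type, red the double mutant against its background, and the black bar is the mean of the 4. The probe set 263319_at lies between -5.03 and -1.56, and apart from it the means run from -1.22 to 1.19.

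Among the probe sets with no name, 262325_at had the largest positive mean, 1.19 (SE 0.59). It read 128 units in bor1 and 644 in the double mutant at 0.3 µM, against 40.9 in wild type and 424 in nip5;1, and 94.2 in bor1 and 44.3 in the double mutant at 100 µM, against 25.7 in wild type and 28.5 in nip5;1. The bor2 effect on it was of similar size, 1.33. On the other side, 248684_at had a mean of -1.22 (SE 0.35), with 149 units in bor1 and 131 in the double mutant at 0.3 µM, against 339 in wild type and 486 in nip5;1. The 100 µM arrays gave it 203 in bor1 and 403 in the double mutant, against 454 in wild type and 632 in nip5;1.

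The pairs were next compared within a boron level. At 0.3 µM the differences of bor1 against wild type and of the double mutant against its background, which share no array, correlated at r = 0.24 across 13647 probe sets (Spearman's rho 0.226), and 58.3% of probe sets had the same sign. At 100 µM the corresponding r was 0.07, with 52.2% of the same sign. The correlations of the 4 combinations that cross boron levels ran from -0.08 to 0.04, the ones within a background included. Without 263319_at the value at 0.3 µM was 0.23. Over 5 alternative floors, normalizations and filters it ran from 0.14 to 0.27. Of all probe sets, 30.9% were higher and 27.4% lower in both pairs at 0.3 µM, and 24.7% higher and 27.4% lower in both pairs at 100 µM. Probe sets are not independent replicates and the arrays of a boron level may share handling, so these are descriptions.

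**Figure D3:**
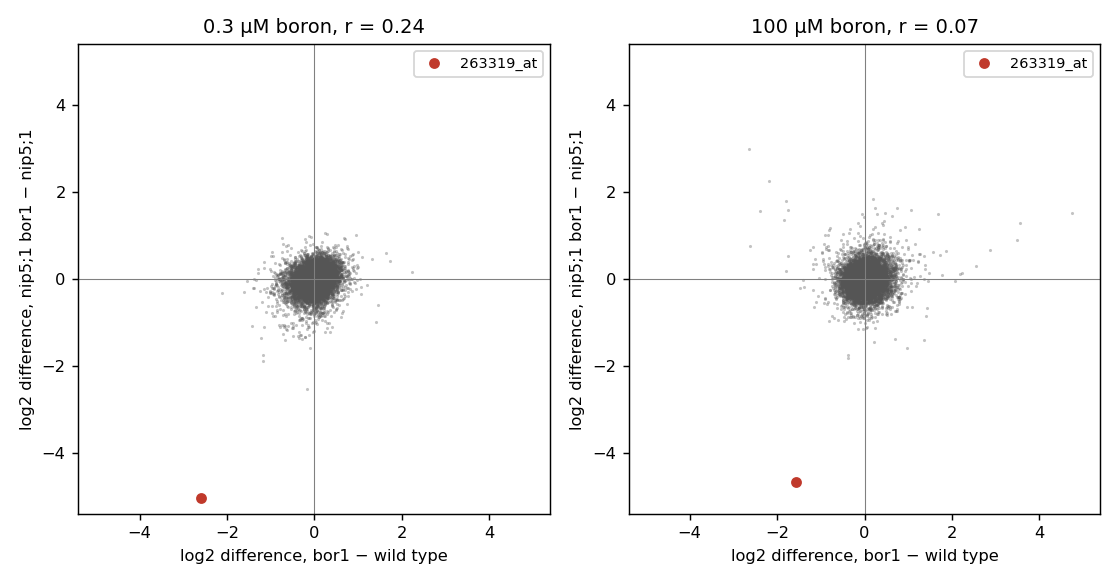
Differences in log2 signal of the double mutant minus its background (vertical) against bor1 minus wild type (horizontal) for 13647 probe sets, at 0.3 µM (left) and 100 µM (right). The cloud leans along the diagonal at 0.3 µM (r = 0.24) more than at 100 µM (r = 0.07), and 263319_at lies far below 0 on both axes in both panels.

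At 0.3 µM, 23 probe sets (0.169%) were higher and 57 (0.418%) lower by at least 0.5 in both pairs, and of these 12 and 26 name 1 gene. Beside 263319_at, the lower ones included AT5G35940, with the largest mean difference of the named genes, and AT5G14650, a pectin lyase-fold protein of the polygalacturonase kind. AT5G14650 read 629 units in bor1 and 322 in the double mutant at 0.3 µM, against 1584 in wild type and 504 in nip5;1, differences of -1.33 and -0.65. The neighbouring loci AT3G49880, a glycosyl hydrolase, and ARLA1C, a small ARF-like GTPase, were both lower. AT3G49880 differed by -0.73 and -1.26, and ARLA1C by -0.78 and -1.11, while at 100 µM ARLA1C differed by 0.13 and -0.15. AT2G36430, AT2G33850, AT1G26390 and AT1G50510 were the other named genes of the 8 with the largest mean difference. Fitted on the 8 arrays of the pairs alone, AT5G14650, ARLA1C, AT3G49880 and AT2G33850 passed for the effect at 0.3 µM (adjusted p 0.00426 each, limma), as did AT5G35940 and AT1G50510 (0.00724 each) and AT2G36430 (0.0232). That fit has 1 residual degree of freedom, and with all 14 arrays none of these genes passed.

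Of the named genes that were higher at 0.3 µM, AT1G06830, a glutaredoxin, had the largest mean difference, with 131 units in bor1 and 141 in the double mutant, against 80.0 in wild type and 74.0 in nip5;1. AT3G07540, a formin-like actin nucleator, read 309 units in bor1 and 871 in the double mutant, against 145 in wild type and 610.0 in nip5;1. AT4G40000, AT1G50580, AT3G03130, the carboxypeptidase gene scpl18, AT4G28330 and AT1G21830 differed by 0.54 to 1.00 in these pairs.

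None of these named genes passed in the fit of all 14 arrays. Without the 4 arrays of the bor2 carriers, which leaves 2 residual degrees of freedom in place of 5, 9 probe sets passed for the effect at 0.3 µM in limma. Among them were AT5G14650 (adjusted p 0.0214), AT3G49880 (0.0214), AT1G50510 (0.0288) and AT2G33850 (0.0288), all lower in the carriers.

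At 100 µM, 52 probe sets (0.381%) were higher and 16 (0.117%) lower by at least 0.5 in both pairs, of which 28 and 3 name 1 gene. AT2G29340, a short-chain dehydrogenase of the tropinone reductase-like group, read 325 units in bor1 and 239 in the double mutant, against 136 in wild type and 107 in nip5;1. At 0.3 µM AT2G29340 read 146 units in bor1 and 69.3 in the double mutant, against 149 in wild type and 91.0 in nip5;1. So the carriers exceeded their backgrounds at sufficient boron by 1.25 and 1.15 and differed by -0.02 and -0.39 at low boron. The chitinase gene CHI read 629.9 units in bor1 and 374 in the double mutant at 100 µM, against 191 in wild type and 255 in nip5;1.

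AT3G60270, a copper-binding protein of the plastocyanin-like kind, differed at 100 µM by 1.56 in bor1 and 0.62 in the double mutant. AT1G73120 differed there by 0.64 and 1.44, and AT5G60730 by 0.81 and 1.13. The 3 named genes that were lower in both pairs at 100 µM were AT2G40960, CYP718 and AT2G20670. Without the 4 arrays of the bor2 carriers, 14 probe sets passed for the effect at 100 µM in limma, among them CHI (adjusted p 0.0393), AT1G73120 (0.0283), AT1G65500 (0.0474) and AT2G29340 (0.047), which were higher in the carriers. Of the 14, 3 were lower in the carriers, namely 263319_at, 246481_s_at and the named gene AT1G30820 (adjusted p 0.0393). With the 8 arrays of the pairs alone, AT3G60270 (adjusted p 0.0194), AT5G60730 (0.0414) and AT2G20670 (0.0498) passed as well in limma. That fit has 1 residual degree of freedom, and none of these named genes passed at 100 µM with all 14 arrays.

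The test of the difference itself, the bor1 effect at 0.3 minus that at 100 µM, called no probe set (0% of 13647, limma, 1170 at an unadjusted p under 0.05, smallest adjusted p 0.509). The 3 named genes with the smallest p were AT2G29340 at -1.54 (95% interval -2.16 to -0.93), AT3G18600, an RNA helicase, at 0.79 (0.47 to 1.1), and ALDH2C4, an aldehyde dehydrogenase of the phenylpropanoid pathway, at -0.53 (-0.76 to -0.31). ALDH2C4 read 4849 units in bor1 and 3783 in the double mutant at 0.3 µM, against 5681 in wild type and 4309 in nip5;1. At sufficient boron it had 6455 in bor1 and 6279 in the double mutant, against 5309 in wild type and 5067 in nip5;1. The carriers were thus below their backgrounds at low boron and above them at sufficient boron, each time in both pairs.

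The bor1 effect in nip5;1 minus that in intact NIP5;1 also called no probe set (0%, limma, 688 at an unadjusted p under 0.05, smallest adjusted p 0.143). This contrast cannot be told apart from a difference between the carrier lines. AT4G00670, a remorin-like plasma membrane protein, read 260.4 units in bor1 at 0.3 µM and 406 at 100 µM, against 576 and 839.6 in wild type. In the double mutant it read 616 units at 0.3 µM and 819 at 100 µM, against 473 and 807 in nip5;1. It was lower in bor1 than in wild type by more than 1 log2 unit at both levels and was not lower in the nip5;1 background. The fitted difference was 1.61 (95% interval 0.89 to 2.34, adjusted p 0.903). In the 8 arrays of the pairs alone, with pair as a block and 1 residual degree of freedom, it was 1.30 and passed (adjusted p 0.0118, limma), as did the effect of -1.10 in intact NIP5;1 (adjusted p 0.00153). AT3G24450, a heavy metal-associated domain protein, had -0.98 (-1.36 to -0.59), and AT3G16350, a MYB-related factor, had -0.67 (-1.02 to -0.33).

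Transcripts that respond to low boron were described through a set chosen on other arrays. The 50 probe sets with the largest mean rise at low boron, and the 50 with the largest mean fall, were taken from the 3 mutant genotypes whose arrays are in none of the 4 pairs. In bor1 the 50 risers had a median low boron response of 0.63, against 0.40 in wild type, and in the double mutant the median was 1.86, against 1.81 in nip5;1. Taken singly, 27 of the 50 had a response of larger size in bor1 than in wild type. For 22 of the 50 it was larger in the double mutant than in nip5;1. At 0.3 µM, 32 of the 50 were higher in bor1 than in wild type (52.8% of all tested probe sets were), with a median difference of 0.24, and 32 were higher in the double mutant than in nip5;1 (50.7% of all), with a median of 0.15. At 100 µM the counts were 28 (50.1% of all) and 39 (47.2% of all), with medians of 0.09 and 0.17. In both pairs at 0.3 µM, 21 of the 50 were higher (30.9% of all) and 7 lower (27.4% of all). None of the 50 passed for the average effect.

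The 50 fallers had a median response of -0.52 in bor1, against -0.30 in wild type, and of -0.94 in the double mutant, against -0.67 in nip5;1. The response was of larger size, in either direction, in bor1 than in wild type for 28 of the 50, and in the double mutant than in nip5;1 for 27. The median differences of the fallers were -0.07 and 0.02 at 0.3 µM and 0.02 and 0.03 at 100 µM, for bor1 and for the double mutant in that order. AT3G53400, a strong riser, read 1574 units in bor1 and 3377 in the double mutant at 0.3 µM, against 1735 in wild type and 3767 in nip5;1. With sufficient boron it read 147 in bor1 and 184 in the double mutant, against 164 in wild type and 165 in nip5;1. The carriers thus stayed within 0.16 of their backgrounds in all 4 pairs, beside a difference of more than 3 log2 units between boron levels. Of 17 low boron responders named in earlier work on these data, 0 passed, 2 were higher in all 4 pairs (6.79% of all were) and 1, SP1L5, was lower (6.43% of all). The 2 higher ones were AT1G30760, a berberine bridge enzyme-like oxidoreductase, and AT5G62420, an aldo-keto reductase.

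Of 11 genes of boron transport and its regulation on the list, 3 had a named probe set and 2 were bright enough to test. WRKY6, a transcription factor needed for root growth at low boron, read 445 units in bor1 and 549 in the double mutant at 0.3 µM, against 444 in wild type and 479.7 in nip5;1. At 100 µM its signals were 431 in bor1 and 383 in the double mutant, against 374 in wild type and 379 in nip5;1, and its mean difference was 0.10 (95% interval -0.17 to 0.38). AT3G06450 (BOR3), a relative of BOR1, had a mean difference of -0.05 (95% interval -0.30 to 0.20), with carriers at 423 to 594 units and backgrounds at 419.9 to 554 units. The groups overlapped for both genes. AT5G25430, another member of the family, read 15.2 to 43.7 units in the carriers and 7.30 to 31.4 units in the backgrounds and was too dim to test.

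Of the gene groups described here, some stood apart in single pairs. The 34 plastid-encoded transcripts tested had a median difference of -0.67 for the double mutant pair at 0.3 µM, where 32 of 34 were lower (49.3% of all tested probe sets were), against -0.03 for the same genotypes at 100 µM and 0.05 and 0.17 for bor1 against wild type at 0.3 and 100 µM. Their median signal at 0.3 µM was 673 units in nip5;1. It was also low, at 471 units, in nip5;1 bor2, which is in none of the pairs. There RCA read 427 and LHCB4.1 585 units. In the double mutant at 0.3 µM the plastid median was 419 units. The photosystem gene psaJ read 104 units in that array, against 230.4 in nip5;1, and matK, a maturase, read 311 against 673. RCA, a nuclear gene of green tissue, read 297 against 464 units and LHCB4.1 643 against 879.8 in the same 2 arrays, and the 3′ to 5′ ratio of GAPDH controls was 1.38 against 1.63. Their part in the result was not tested, and less plastid-rich tissue and less plastid RNA per cell cannot be told apart in whole roots. Over all 4 pairs 2 plastid transcripts were higher throughout (6.79% of all probe sets were) and 2 lower (6.43% of all). The higher ones were rpl36, of a ribosomal protein, with differences from 0.07 to 0.73, and psbJ, of photosystem II, with 0.0036 to 0.44. The lower ones were rpl16, also of a ribosomal protein, and the large rubisco subunit gene rbcL. The rbcL signals were 146 and 104 units in bor1 and the double mutant at 0.3 µM, against 179 in wild type and 199 in nip5;1. Its mean difference was -0.64 (SE 0.14, adjusted p 0.95, limma). With the 8 arrays of the pairs alone, the rbcL effect in the nip5;1 background was -0.90 and passed (adjusted p 0.0427, limma).

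At 100 µM the hypoxia genes lay on opposite sides in the 2 backgrounds, a difference that was not tested for the group. Of 18 tested, 17 were lower in bor1 than in wild type (49.9% of all tested probe sets were), with a median of -0.49, and 13 were higher in the double mutant than in nip5;1 (47.2% of all), with a median of 0.25. AT5G10040 read 164 units in bor1 and 182 in the double mutant, against 1024 in wild type and 23.0 in nip5;1. AT2G17850 read 118 in bor1 and 132 in the double mutant, against 541 in wild type and 27.9 in nip5;1. In both genes the 2 carriers were alike and the 2 backgrounds were far apart. The array medians of the 18 genes were 816 in bor1 and 813 in the double mutant, against 1085 in wild type and 692 in nip5;1. The bor2 carriers at 100 µM, set against the same backgrounds, had medians of 709 in bor2 and 1192 in nip5;1 bor2. They too lay below wild type and above nip5;1, so the pattern was not particular to bor1. None of these genes passed for the average effect, and 4 of 18 were lower in all 4 pairs (6.43% of all were), AT1G33055 at -0.34, AT3G10020 at -0.32, AT1G26270 at -0.23 and AT5G27760 at -0.14.

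**Figure D4:**
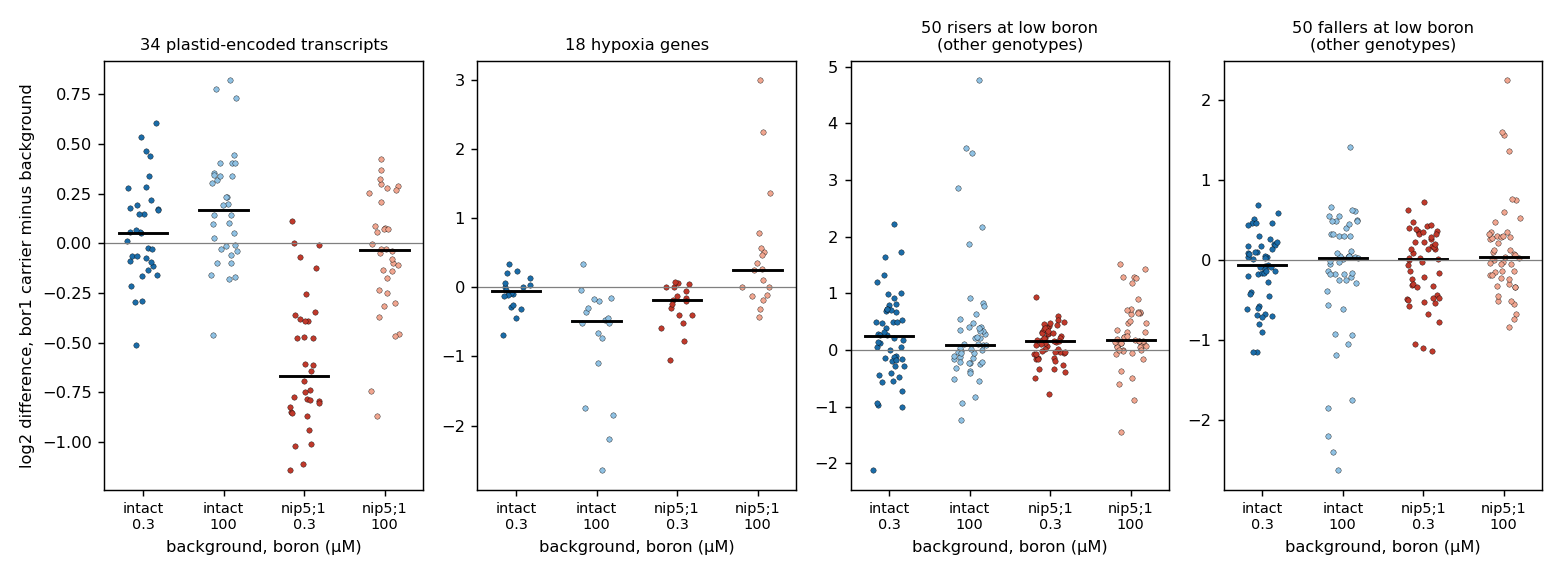
Difference in log2 signal, bor1 carrier minus background, in each of the 4 pairs (horizontal: background and boron in µM) for plastid-encoded transcripts, hypoxia genes, and the 50 probe sets with the largest rise and fall at low boron in other genotypes, where points are probe sets and bars medians, and the vertical scales differ. The median of the plastid transcripts is -0.67 for the double mutant at 0.3 µM, and hypoxia genes lie low for bor1 (-0.49) and high for the double mutant (0.25) at 100 µM.

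Some large differences of named genes stood in 1 pair. AT1G26380, an oxidoreductase of the berberine bridge enzyme-like family induced in defence, read 1028 units in bor1 at 100 µM, against 176 in wild type. In the other 3 pairs it read 143 units in bor1 at 0.3 µM, 154 in the double mutant at 0.3 µM and 532 in the double mutant at 100 µM, against 230.1 in wild type and 205 and 431 in nip5;1. Its neighbour AT1G26390, of the same family, read 658 units in bor1 at 100 µM, against 141 in wild type. AT1G26390 was not limited to that pair, being lower by at least 0.5 in both pairs at 0.3 µM. With no second array these single-pair values have no replicate check.

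The average effects of bor1 and bor2 were compared directly, both being measured against the same wild type and nip5;1 arrays. The probe set 251254_at, 1 of 13647 (0.00733%), passed and 0 passed in the other direction. It read 487 and 600.5 units in bor1 and the double mutant at 0.3 µM and 504 and 532 at 100 µM, against 502 and 525 in wild type and nip5;1 at 0.3 µM and 478 and 529 at 100 µM. In bor2 and nip5;1 bor2 it read 72.6 and 125 units at 0.3 µM and 63.5 and 71.4 at 100 µM. The difference of 2.72 (adjusted p 3.1e-06, limma) thus came from the bor2 carriers, at -2.66, beside 0.06 for bor1. For 263319_at the same difference was -3.16 (adjusted p 0.507, limma), again with the double mutant at the floor. The named genes with the smallest p were AT1G21660 at 0.92, AT5G66770, a GRAS family regulator, at 0.69 and AT4G02850 at -0.57, none of which passed.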

How the data were processed

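The data are intensity values on a linear scale that the authors made from Affymetrix ATH1 arrays with MAS5, per the submitters' processing notes, which name no version. Total RNA came from roots, per the labels' protocols. The number of arrays limits the precision.

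Control probe sets (64 of 22810) were left out. Arrays were brought to one 2% trimmed mean, values below the 20th percentile (20 units) were set to it, and log2 was taken, so differences of dim transcripts are understated. The upper 60% by mean signal (13647 probe sets) were tested. Of these, 7389 name 1 gene in the platform annotation, updated through RefSeq assembly TAIR10.1, 282 name several and 5976 are not listed.

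Models were fitted by lmFit and eBayes (with an intensity trend) of limma 3.58.1 under R 4.3.3, with p for either direction, Benjamini-Hochberg over all tested probe sets, adjusted p 0.05. The average bor1 effect came from an additive fit of 14 arrays (a term per NIP5;1 state and boron level, bor1, bor2, nip6;1, with 7 residual degrees of freedom) and equals the mean of the 4 pair differences. Effects by background and boron level came from the fit with bor1 interactions (5 residual degrees of freedom), whose estimates also draw on the other 6 arrays and so differ from plain pair means. The average effect of the additive fit was tested on simulated data, and the effects of the fit with interactions were not.

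The members and lists were chosen with earlier results of these data known. Named genes are up to 12 per direction with all 4 pairs past the threshold or, as here, at least 0.3 apart, the 3 smallest p per contrast, all boron transport members, and up to 4 per list with one sign in all pairs. Peroxidase, subtilase, lectin and wider hypoxia lists were made once the annotation had been read. The largest genes per pair and per boron level were added after values were seen. Alternatives were other floors, a pseudocount of 50, normalization, filters, priors, a GAPDH covariate, a random genotype block, fewer arrays and each pair left out. Python 3.11.15 with pandas 2.3.3 and matplotlib 3.10.9 made the figures.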

Additional observations from a re-analysis of the deposited data

Results flagged for a closer look

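In 6 of 131 sets of 4 pair differences, 1 pair was flagged for its gap to the other 3. The gap was 0.847 to 0.982 of the range of the 4 (Dixon ratio), whatever its absolute size. Some of these sets were chosen for a large difference in 1 pair and others for agreement of all 4. No chance rate can therefore be set beside this count. AT5G66815 (CEP5) had a difference of 1.02 for nip5;1 bor1 against nip5;1 at 100 µM, beside 0.44 to 0.45 in the other pairs. AT4G27652 had 1.83 in that pair, beside 0.02 to 0.28, and AT3G53400 had 0.15 there, beside -0.16 to -0.14. AT3G18250 had 1.76 for bor1 against wild type at 100 µM, beside -0.13 to 0.16. AT3G17340 had 0.98 for nip5;1 bor1 against nip5;1 at 0.3 µM, beside -0.24 to -0.11, and the plastid gene psbZ had -1.01 in that pair, beside -0.08 to 0.01.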

How the results depend on the processing

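No paired analysis by replicate number was possible because every array carries replicate number 1, so replicate numbers pair nothing. Background and boron level pair the arrays instead, and every fit has a term for each such pair. A random block for genotype had a consensus correlation of 0.022 in the average fit, which then also called 0. The average bor1 effect called 0 probe sets under every alternative run except with no filter on dim probe sets, where it called 1 (AT5G08250).

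The other counts depended on which arrays estimated the spread. With the 8 arrays of the pairs alone and pair as a block (1 residual degree of freedom with interactions) the calls were 12 for the difference between backgrounds, 6 for that between boron levels, 38 in intact NIP5;1, 38 in nip5;1, 54 at 0.3 µM and 43 at 100 µM. Without the bor2 and nip5;1 bor2 arrays they were 1, 1, 8, 2, 9 and 14 in that order. With no filter they were 8, 10, 13, 5, 7 and 29, and 2 for bor1 against bor2. Apart from bor1 against bor2, most probe sets called with no filter had a mean signal below the floor. Examples were AT2G06330 at 9.41, AT5G48550 at 13.35 and AT1G13230 at 13.7 units. Values below the floor are set to it, which shrinks their spread over arrays, so such calls were not read as bor1 effects. Brighter exceptions at 100 µM included AT5G08250 at 98.2 and AT5G41280 at 259 units. A floor of 10 units gave 1 for the difference between backgrounds, and leaving out the bor2 array at 0.3 µM, chosen after seeing the data, gave 1 for it and 1 in intact NIP5;1. Leaving out a pair gave 0 to 1 calls for the difference between backgrounds, in nip5;1, at 0.3 µM and at 100 µM, and 1 for bor1 against bor2. The median bor1 difference of the 50 low boron risers was 0.18, 0.16 to 0.22 with a pair left out and 0.081 among the upper 40% of probe sets. Why these values moved was not tested.

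Small means changed sign, none near the threshold. XTH20 was 0.0061 and AT2G43890 0.0035 with a pseudocount of 50, and AT3G24450 was 0.0095 with the GAPDH ratio as a covariate. With 1 pair left out in turn, the means ran from -0.10 to 0.13 for XTH20, -0.48 to 0.26 for AT2G43890, -0.28 to 0.13 for AT3G24450, -0.066 to 0.58 for AT5G22580, -0.13 to 0.23 for AT1G33790, -0.045 to 0.13 for ALDH2C4, -0.080 to 0.065 for AT1G21660, -0.66 to 0.14 for AT4G33720 and -0.10 to 0.0086 for AT3G06450. Of the other single-gene values, 1091 kept sign and side of the threshold.

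With 1 array per genotype and level, the median SE was 0.12 for the average effect. It was 0.15 to 0.20 for the effects by background and boron level. Differences well above the median SE also failed to pass, such as the mean of -3.47 for 263319_at (adjusted p 0.649, limma). Differences near the floor of 20 units are understated.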
